A study of Homo sapiens and Mus musculus with 16 samples.

Results

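The regions described here are stretches of accessible chromatin that were listed in a KPC primary tumor cell line, had no counterpart in the matched liver metastasis (mets) line and lay away from every annotated gene start. They were chosen by 3 conditions applied to the deposited lists: a score of 182 or more in the primary tumor list, no overlap of even 1 bp with any mets region, and more than 1 kb to every GENCODE transcription start site of mm10. They are called tumor-only regions below, and 2510 of the 68074 regions of the primary tumor list met all 3 conditions. In the whole list, 8.51% of regions had no mets counterpart. Among the 43228 distal regions that reached the score, the share was 5.81%, and it is the background for every share of tumor-only regions given below. Because the overlap and the score selected these regions, both are given as a description and support nothing.

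The series held 16 ATAC-seq samples in 4 groups of 4 replicates, and 2 of the groups are used here. Both are mouse pancreatic cancer cell lines grown in the same medium, untreated and labelled WT, one from a primary tumor and one from liver mets. The study derived them from its autochthonous KPC mice, in which Cre recombinase switches on mutant cancer genes in the pancreas, and calls the lines matched and isogenic. How many animals or clones stand behind each line is not given in the sources used here, and a difference between 2 lines cannot be told apart from a difference between primary tumor and metastasis in general. Each group came as 1 list for its 4 replicates, so no region has a value per replicate, the read depth is unknown and no p-value was computed. The intervals below are Wilson or Newcombe 95% intervals and cover counting error only.

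Accessible regions far from gene starts are where most enhancers lie, and they tend to differ between cell states more than promoters do. Sequence-specific factors open or hold them: AP-1 (dimers of the FOS and JUN families) at enhancers that respond to growth signals, GATA, FOXA and HNF4 factors at enhancers of gut and pancreatic epithelium, and RUNX and TEAD factors in many growing epithelial cells. CTCF binds insulator sites and loop anchors, most of which are accessible in every cell type. The start-site regions of epithelial marker genes were checked first, and most had a region in both lists. Regions lay at the starts of Cdh1, Epcam, Krt8, Krt18 and Krt19 in both lists, and at Esrp1 in the primary tumor list, which makes 6 of 8 epithelial markers in the primary tumor and 5 of 8 in mets. Of the 8 hepatocyte markers, Apob had a start-site region in both lists and Ttr in the primary tumor list. Of the 8 immune markers Cd68 had one in both lists. Start-site regions at Pecam1, Kdr and Vwf (3 of 6 endothelial markers) and at Col1a1 and Pdgfra (2 of 8 fibroblast markers) were also present in both lists, and the part of other cells in the lists was not tested.

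The sequences of the highest-scoring tumor-only regions show what was selected. They are given as the central 300 bp, plus strand of mm10 (RefSeq, GRCm38.p6), in lower case, with capitals for a match on either strand to any of 5 consensus sequences. The word TGACTCA stands for the AP-1 dimers and TGTTTAC for the forkhead factors of the FOXA family. The word AGATAAG stands for GATA factors, CAAAGTCCA for the nuclear receptor HNF4 and TGTGGTTT for RUNX. The regions are named by the nearest protein-coding gene, and 3 regions of similar score are described without their sequence.
Usp47, chr7:112103817-112104116: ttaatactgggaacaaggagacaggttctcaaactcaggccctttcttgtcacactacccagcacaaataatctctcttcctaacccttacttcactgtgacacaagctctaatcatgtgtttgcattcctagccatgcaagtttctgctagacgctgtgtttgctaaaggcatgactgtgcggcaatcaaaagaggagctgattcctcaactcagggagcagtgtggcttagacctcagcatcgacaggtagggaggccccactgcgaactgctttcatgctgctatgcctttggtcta
Akap9, chr5:4004900-4005199: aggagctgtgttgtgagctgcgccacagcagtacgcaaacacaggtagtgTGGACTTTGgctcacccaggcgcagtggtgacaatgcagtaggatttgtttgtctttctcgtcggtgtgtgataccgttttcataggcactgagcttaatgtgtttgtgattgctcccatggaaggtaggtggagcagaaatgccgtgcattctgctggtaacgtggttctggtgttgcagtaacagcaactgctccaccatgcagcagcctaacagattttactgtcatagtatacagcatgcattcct
Immp2l, chr12:40915159-40915458: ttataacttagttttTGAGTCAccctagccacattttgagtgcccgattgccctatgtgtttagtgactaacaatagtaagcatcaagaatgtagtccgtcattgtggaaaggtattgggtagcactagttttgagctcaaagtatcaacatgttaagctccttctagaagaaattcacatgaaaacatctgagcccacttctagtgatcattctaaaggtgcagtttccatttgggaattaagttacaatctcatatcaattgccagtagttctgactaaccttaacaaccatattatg
Rbm47, chr5:66112212-66112511: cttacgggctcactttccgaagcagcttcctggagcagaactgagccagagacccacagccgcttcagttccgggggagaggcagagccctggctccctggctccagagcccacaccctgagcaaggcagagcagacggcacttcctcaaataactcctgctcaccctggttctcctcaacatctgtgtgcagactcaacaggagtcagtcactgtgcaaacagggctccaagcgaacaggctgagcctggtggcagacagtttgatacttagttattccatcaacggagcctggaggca
Pthlh, chr6:147315294-147315593: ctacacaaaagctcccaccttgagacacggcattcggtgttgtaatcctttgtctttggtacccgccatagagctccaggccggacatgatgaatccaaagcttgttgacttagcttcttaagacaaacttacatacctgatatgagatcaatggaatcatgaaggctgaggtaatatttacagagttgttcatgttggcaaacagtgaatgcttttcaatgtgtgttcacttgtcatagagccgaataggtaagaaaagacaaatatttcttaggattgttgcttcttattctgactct

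For each factor, the highest-scoring region among those open to printing with a match within 100 bp of its center was then taken, to show the context of the match (the HNF4 example is the Akap9 region above). In these, the bases around the match are printed. The last pair, chosen after their values were seen, shows the central 300 bp of a region at Rbm33 in which 3 consensus sequences meet and of the strongest region near the trefoil factor genes. Capitals are as before.
AP-1, intron of Ncald, chr15:37663305-37663425: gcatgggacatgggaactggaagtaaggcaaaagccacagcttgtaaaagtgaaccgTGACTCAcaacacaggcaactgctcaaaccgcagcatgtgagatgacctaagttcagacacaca
GATA with AP-1, intron of Erc2, chr14:28359595-28359715: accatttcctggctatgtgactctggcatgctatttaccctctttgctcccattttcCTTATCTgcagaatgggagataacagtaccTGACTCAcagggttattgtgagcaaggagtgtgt
FOXA, chr2:139856602-139856722: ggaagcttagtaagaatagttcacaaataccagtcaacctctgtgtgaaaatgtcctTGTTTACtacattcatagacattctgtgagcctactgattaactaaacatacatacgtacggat
RUNX, intron of Cemip2, chr19:21802034-21802154: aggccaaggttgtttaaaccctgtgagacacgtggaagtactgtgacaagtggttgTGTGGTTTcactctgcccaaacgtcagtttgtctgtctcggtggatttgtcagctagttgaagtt
Rbm33, intron, chr5:28329075-28329374: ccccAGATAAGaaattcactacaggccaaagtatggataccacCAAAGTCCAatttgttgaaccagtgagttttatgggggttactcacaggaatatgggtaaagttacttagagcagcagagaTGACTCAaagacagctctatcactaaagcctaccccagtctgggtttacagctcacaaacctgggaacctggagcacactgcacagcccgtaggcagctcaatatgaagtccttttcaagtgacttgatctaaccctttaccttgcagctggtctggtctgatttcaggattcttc
Tff1 and Tff2, intron of Tmprss3, chr17:31183480-31183779: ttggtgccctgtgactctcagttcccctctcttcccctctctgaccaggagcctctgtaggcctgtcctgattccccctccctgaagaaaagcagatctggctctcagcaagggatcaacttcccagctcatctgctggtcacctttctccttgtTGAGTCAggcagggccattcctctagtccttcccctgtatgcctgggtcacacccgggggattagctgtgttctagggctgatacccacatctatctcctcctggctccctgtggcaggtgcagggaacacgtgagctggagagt

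The Usp47 region was the strongest of all tumor-only regions, with a score of 1138 that placed it at percentile 96.5 of the primary tumor list. It was 475 bp wide, its center lay in an exon of Usp47 (a deubiquitinating enzyme), 13024 bp from the nearest start site, and the nearest mets region was 8424 bp away. The Wwox region (score 962, percentile 91.0) lay in an intron of that gene, an oxidoreductase gene that spans a common fragile site, 58320 bp from the nearest mets region. The region in an intron of Akap9, which encodes a scaffold protein of the Golgi and centrosome, had a score of 910 and held the HNF4 consensus. The Rpgrip1l region (score 893, intronic) lay in a gene of the ciliary transition zone, and the intergenic region whose nearest coding gene was Immp2l (score 856) lay 1684 bp from a non-coding start site. The other regions among the 10 highest were nearest to Rttn, Rbm47, Pthlh, Syne1 and Ccng1, at scores from 742 to 1005. Of the 5 capitalized words, AP-1 was found in the Immp2l region, HNF4 in the Akap9 region and RUNX in the Wwox region. Among the further families counted below, CEBP was in the Usp47, Rbm47 and Syne1 regions. SOX was in the Rttn region and SNAI/ZEB in the Rpgrip1l region.

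The consensus sequences of 14 factor families were then counted in 3 sets of distal regions. These were the 2510 tumor-only regions, the 40718 distal regions of the primary tumor list that did overlap a mets region (shared regions), and the 10079 distal mets-only regions that ranked as high in their own list (score of 161 or more). Tumor-only regions had a median width of 306 bp, against 511 bp for shared and 291 bp for mets-only regions, so a share over whole regions favors the shared set. Every region was at least 200 bp wide, and the central 200 bp therefore give each region the same length. Matches outside that window are lost. At 100 to 150 bp from the center, on either side, AP-1 words numbered 47.0 and 49.4 per 1000 shared regions reaching that far. The tumor-only values were 25.6 and 28.2, so a central AP-1 share can favor the narrower sets. For GATA the values there were 8.43 on both sides in shared and 12.3 and 10.2 in tumor-only regions. Beside the 5 words above, the search on both strands used ACATTCCA for the Hippo pathway factors TEAD, CCGGAAGT for the ETS family and GGGCGTGGC (the fourth letter C or T) for the KLF family. It used TTGCNNAA for the leucine zipper factors CEBP, ACAATGG for the SOX family, TTCNNNGAA for the cytokine-activated STAT factors and CAGGTG for the repressors SNAI and ZEB, and longer patterns for CTCF and HNF1. Sequence played no part in choosing the regions, and matches are a description and not binding sites.

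AP-1 was the most frequent consensus in the tumor-only regions. In the central 200 bp it was found in 34.3% of them (32.4 to 36.1), in 31.1% of shared regions and in 32.1% of mets-only regions. The difference from shared regions was 3.19 percentage points (1.30 to 5.12), and the difference from mets-only regions was 2.20 points (0.148 to 4.28). Over whole regions the order against the shared set was the opposite, at 40.3% of tumor-only and 47.3% of shared regions (difference -7.06, -9.03 to -5.07). The order changed with width. Among regions under 300 bp the AP-1 share was 40.8% in the tumor-only and 31.7% in the shared set, a difference of 9.13 points (6.08 to 12.2), whereas among regions of 600 bp or more it was 39.0% and 59.0%, a difference of -20.0 points (-27.6 to -11.9). The tumor-only share lay between 39.0% and 40.8% in all width bands, while the shared one climbed with width. Many shared regions held repeated matches: 10.5% of them had at least 2 AP-1 words, against 4.42% of tumor-only (3.69 to 5.30) and 5.07% of mets-only regions. The AP-1 word written backwards, counted after the true matches had been masked, was in 7.89% of tumor-only (6.90 to 9.01), 10.1% of shared and 5.55% of mets-only whole regions, so a word of the same composition also stood above the mets-only set.

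The GATA consensus was more frequent in the center of the tumor-only regions than in that of both other sets. It was found in the central 200 bp of 4.98% of tumor-only regions (4.20 to 5.90), 3.78% of shared and 3.49% of mets-only regions. The differences were 1.20 points (0.393 to 2.14) and 1.49 points (0.618 to 2.47). Over whole regions the order against the shared set was the opposite, at 7.89% and 9.28% (difference -1.39, -2.42 to -0.238), while the 5.67% of mets-only regions stayed lower (difference 2.22, 1.13 to 3.42). In regions of 400 to 599 bp, 15.1% of the tumor-only and 8.48% of the shared set held it anywhere, a difference of 6.59 points (3.66 to 10.1). In the other width bands the interval of the difference included 0. The HNF4 consensus was rare throughout, at 1.12% of tumor-only (0.773 to 1.61), 0.688% of shared and 0.635% of mets-only regions in the central 200 bp. Its differences were 0.428 points (0.0749 to 0.926) and 0.481 points (0.0958 to 0.991). Over whole regions HNF4 did not separate the tumor-only from the shared set, at 1.55% and 1.63% (difference -0.0794, -0.514 to 0.496), but stood above the 0.873% of mets-only regions by 0.681 points (0.219 to 1.27). For FOXA, 4.98% of tumor-only, 4.78% of shared and 5.85% of mets-only regions had a central match, and both intervals of the difference included 0 (-0.611 to 1.14 and -1.79 to 0.149). Over whole regions FOXA was in 7.29% of tumor-only and 11.04% of shared regions, a difference of -3.75 points (-4.75 to -2.63). The FOXA word written backwards differed nearly as much, by -3.26 points (-4.35 to -2.06), and the backwards GATA word by -1.79 points (-2.52 to -0.923). The whole-region differences of FOXA and GATA from the shared set are thus not particular to these words.

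Words for 3 other families were less frequent in the tumor-only regions. The CTCF consensus was in the central 200 bp of 1.51% of them (1.10 to 2.07), against 4.87% of shared and 5.13% of mets-only regions, with differences of -3.35 points (-3.81 to -2.76) and -3.62 points (-4.22 to -2.92). Among whole regions under 300 bp the gap was 2.69% against 11.1%. RUNX followed, at 2.43% of tumor-only (1.90 to 3.11), 3.77% of shared and 5.76% of mets-only regions, which gave -1.34 points (-1.91 to -0.642) and -3.33 points (-4.05 to -2.53). The SNAI/ZEB word CAGGTG, which repressors of epithelial genes bind, was in 10.2% of tumor-only (9.11 to 11.5), 13.1% of shared and 12.7% of mets-only regions. The SOX word ACAATGG differed from the mets-only set by -2.20 points (-2.88 to -1.43), at 2.35% against 4.55%, and its interval against the shared set included 0 (-1.11 to 0.128). For TEAD, CEBP, KLF, ETS and HNF1 both intervals of the central difference included 0, and for STAT only the one against the shared set did (-1.51 to 0.388). Over whole regions all of these words were less frequent in the tumor-only than in the wider shared regions, with differences of -1.84 points (-2.51 to -1.04) for TEAD, -7.01 (-8.43 to -5.49) for CEBP, -1.45 (-1.92 to -0.832) for KLF, -0.583 (-0.767 to -0.262) for ETS, -0.357 (-0.464 to -0.117) for HNF1 and -6.85 (-8.05 to -5.53) for STAT. The whole-region difference was -14.6 points (-16.1 to -13.0) for SNAI/ZEB and -4.10 (-4.86 to -3.21) for SOX. Written backwards, the words also differed from the shared set over whole regions, by -6.71 points for STAT, -1.01 for ETS, -7.09 for SNAI/ZEB, -2.09 for SOX and -2.52 for CEBP. For TEAD, KLF and HNF1 the backwards differences were -0.0895, -0.157 and -0.0363 points, with intervals that included 0. The whole-region difference from the shared set was -4.57 points for RUNX, and -0.993 (-1.41 to -0.435) for its backwards word. For CTCF it was -4.79 points, and 0.0325 for the backwards pattern, with an interval that included 0.

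Of the tumor-only regions, 26.5% (24.8 to 28.3) held none of the 14 sequences anywhere, close to the 24.6% of mets-only regions and above the 14.6% of the wider shared regions. At least 3 of them were in 8.53% (7.50 to 9.68) of tumor-only, 24.1% of shared and 10.4% of mets-only regions. Pairs were counted among 7 of the families, AP-1, FOXA, GATA, HNF4, RUNX, TEAD and CTCF. AP-1 with GATA was in 78 tumor-only regions, or 3.11% (2.50 to 3.86), against 4.82% of shared regions. AP-1 with FOXA was in 68, or 2.71% (2.14 to 3.42), against 5.53%, and AP-1 with RUNX in 31, or 1.24% (0.871 to 1.75), against 3.86%. AP-1 with HNF4 was in 15 tumor-only regions and GATA with HNF4 in 4.

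AP-1 matches were densest at the region center. Within 50 bp of the center, on either side, AP-1 words numbered 127 and 136 per 1000 tumor-only regions, 106 and 105 per 1000 shared regions, and 126 and 132 per 1000 mets-only regions. The values of the tumor-only and mets-only sets lay close together, above those of the shared set. CTCF words numbered 6.37 and 6.77 per 1000 tumor-only regions, 16.7 and 18.1 per 1000 shared and 25.8 and 21.03 per 1000 mets-only regions. GATA words numbered 12.7 and 17.9 per 1000 tumor-only regions, 32 and 45 matches in all, against 9.92 to 10.6 per 1000 shared regions. The RUNX profile rested on 13 and 24 matches in tumor-only regions.

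All 7-letter words, both strands counted as 1, were compared without reference to known factors. Of 8192 words, 5641 occurred in at least 1% of shared regions, and the median ratio of the tumor-only to the shared share was 1.01. The ratio was 1.5 or more for 118 words and 0.67 or less for 168. The highest was CGAGTCA, which is 1 letter off the AP-1 consensus on its other strand. It was in 2.67% of tumor-only (2.11 to 3.38), 1.34% of shared and 1.36% of mets-only regions, a ratio of 1.99 to the shared set. TATGTCA, the third, is 2 letters off that consensus and was in 4.46% (3.72 to 5.34), 2.34% and 2.38%. The word TAAGATA ranked between them and contains the GATA core. It was in 2.99% (2.39 to 3.73), 1.57% and 1.84%. Next in rank were CTAATAC, at 2.51% of tumor-only against 1.34% of shared regions, and, also with the GATA core, GTAGATA at 2.43% against 1.34%. Of the 15 highest words 5 contain GATA on either strand and 1 contains CG. All 15 of the lowest words contain CG. The lowest, GCCGGGA, was in 8 tumor-only regions (0.319%, 0.162 to 0.628), against 1.03% of shared regions. Next came CCGCCCA, whose ratio was 0.323. The word that followed was CGCTGGC, whose ratio was 0.343. The remaining ones of the lowest 5, GAGCGCC with a ratio of 0.365 to the shared set and the GC-only word CCCGGCC with the same ratio, closed the ranking. The words were ranked on these same regions, so their ratios describe the ends of the ranking. Median GC content was 45.5% in tumor-only, 47.0% in shared and 45.7% in mets-only regions.

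By score, most tumor-only regions were weak members of their list. Their median score percentile was 22.4, with a range from 11.6 to 96.5, and that of shared regions was 54.2. They made up 22.3% of distal regions in the second score decile (1086 regions), 7.25% in the fourth, 1.93% in the sixth and 0.0702% in the strongest (3 of 4271). At the edges of the rule, 107 tumor-only regions had a score of exactly 182 and 19 distal regions without a counterpart had 181. The closest mets region to any tumor-only region was 17 bp away, and the smallest overlap that made a region shared was 3 bp. The smallest start-site distance inside the rule was 1005 bp and the largest outside it 998 bp. For 220 tumor-only regions (8.76%) a mets region lay within 500 bp, the median distance was 5069 bp, and for 129 (5.14%) there was none within 50 kb. The most remote was on chromosome X, 2583943 bp from the nearest mets region, and 37.7% of its bases were repeat-masked. In Erc2, which encodes a scaffold protein of the presynaptic active zone, 2 tumor-only regions were 496881 and 588058 bp from any mets region. More than 50% of the bases were repeat-masked in 6.10% of tumor-only (5.23 to 7.10), 4.16% of shared and 6.81% of mets-only regions. The widest tumor-only region, 1291 bp on chromosome 8, had Irs2 as its nearest coding gene, 193213 bp away.

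By their centers, 54.9% of the tumor-only regions (53.0 to 56.9) were intronic, 41.2% (39.2 to 43.1) intergenic and 3.90% exonic. The intronic share was higher than the 50.6% of shared and the 48.5% of mets-only distal regions, and the intergenic share lower than their 45.03% and 47.6%. The median distance to the nearest start site was 11826 bp, against 10651 bp in the shared and 13203 bp in the mets-only set. The next region of the primary tumor list lay a median of 4958 bp away from a tumor-only region and 4964 bp from a shared one.

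Along the genome the tumor-only regions were uneven. On chromosome 8, 244 of 2312 distal regions (10.6%, 9.37 to 11.9) were tumor-only, and on chromosome 18, 152 of 1533 (9.92%, 8.52 to 11.5), against 5.81% over all chromosomes. Chromosome 13 had the lowest share, 60 of 1890 (3.17%, 2.47 to 4.06), followed by chromosome 10 with 3.71% (2.98 to 4.61). The share was higher on chromosomes 8 and 18 in all 3 score ranges. At scores of 182 to 249 the share was 32.6% on chromosome 8, 34.4% on chromosome 18 and 18.9% elsewhere. At scores of 250 to 399 it was 15.4%, 14.95% and 7.03%, and at 400 or more 1.89% (1.28 to 2.77), 1.55% (0.928 to 2.59) and 0.918% (0.802 to 1.05), where the interval of chromosome 18 overlapped that of the others.

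Mets-only regions were fewer on chromosome 8 and more on chromosome 13. They made up 12.3% of distal mets regions on chromosome 8 and 28.0% on chromosome 13, against 19.1% over all chromosomes. The mets list held 80843 regions and the primary tumor list 68074, so shares and percentiles of the 2 lists rest on unlike totals. Each shared region was given a change, its score percentile in the mets list minus that in the primary tumor list, and the median change was -0.634 on chromosome 8, 0.753 on chromosome 18 and 8.05 on chromosome 13, against 3.75 over all. Over 20 chromosomes Spearman's rho between the tumor-only share and the median change was -0.759, and between the tumor-only and the mets-only share -0.592. These are descriptions over chromosomes that share the same 2 lists. A difference in DNA copy number between the lines and a difference in accessibility along a whole chromosome cannot be told apart in these lists. In the 245 bins of 10 Mb with at least 50 distal regions the tumor-only share ran from 0% to 16.3% with a median of 5.53%, and 6 of the 10 highest bins were on chromosomes 8 and 18. The highest was the bin from 10 to 20 Mb of chromosome 18 (17 of 104 regions, 16.3%), followed by 40 to 50 Mb of chromosome 8 (29 of 180, 16.1%).

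Most tumor-only regions stood alone. With 50 kb as the joining distance, 1878 of them (74.8%) had no other tumor-only region nearby, and the remaining 632 fell into 282 groups, 51 of which held 3 or more. The largest group had 6 tumor-only among 12 distal regions in 204.6 kb of chromosome 8 (70364465 to 70569041), near Crtc1, a coactivator of CREB, Comp, Ell and Upf1. A neighboring group of 5 among 7 distal regions (70744307 to 70829847) lay near Jund, Mast3 and Rab3a. Groups of 5 were also found in Ankrd11 (5 of 11 distal regions) and near Mapk13 and Mapk14 on chromosome 17 (5 of 10). All 4 distal regions were tumor-only in a stretch of 27.0 kb at Rbm33, in another of 27.0 kb within Btbd9 and in a stretch of 75.6 kb of chromosome 14 with no coding start nearby. Shared distal regions within 50 kb of a tumor-only region had a median change of 2.12 percentile points, and 42.0% of those 8267 ranked lower in mets, whereas the 32451 farther away had a median change of 4.16 and 35.1% ranked lower. Within 10 kb, the 2172 shared regions had a median change of 2.74 and 39.5% ranked lower. The difference from the regions farther away was thus not larger at the shorter distance.

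Each gene was then given its count of tumor-only regions, with 50 kb around its start sites as the window. Of 16086 protein-coding genes with a distal region in that window, 3117 had a tumor-only region and 84 had 3 or more. Rbm33, a gene for an RNA-binding protein, had 6 tumor-only among 11 distal regions. They had scores of 212, 236, 276, 256, 528 and 287, and 3 mets-only regions lay in the same window, so the locus had regions of its own in each line. The region at 28329075 to 28329375 of chromosome 5, in an Rbm33 intron, held AP-1, GATA and HNF4 words together and is printed above. Irf2, which encodes an interferon regulatory factor, had 6 of 17, of which 4 lay upstream in a non-coding neighbor (Gm16675) and 2 in Irf2 introns. Their scores ran from 198 to 414, AP-1 was in 4 of the 6 and FOXA in 2. Of all tumor-only regions, 40.3% held the AP-1 word and 7.29% the FOXA word. These shares are the background for the counts of both words at single genes and gene lists. Ankrd11, a chromatin regulator gene, also had 6, among 19 distal regions, with scores from 199 to 289. AP-1 was in 4 of these 6.

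Btbd9 had 5 among 17, and 4 of them lay together in its introns at least 57291 bp from any mets region, with scores of 256, 200, 408 and 470. Tns1, for the focal adhesion protein tensin, had 5 among 19, all intronic, and none held AP-1. Psd3 had 5 among 21 and Lpp, for a protein of focal adhesions, 5 among 29. Mast3 had 5 among 12, and Mpv17l2 and Rab3a had 4 among 6 each. These 3 genes share regions, since they lie side by side on chromosome 8. Of the 10 genes with the most tumor-only regions, 6 were on chromosome 8, which held 244 of all 2510 tumor-only regions. These 6 include the 3 genes that share regions. Mpv17l2 and Rab3a were placed before other genes with 4 because they had fewer distal regions.

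Gene lists covered factors, pancreatic and gut identity, and pathways. In the 11 lists the tumor-only share of distal regions within 50 kb ran from 1.47% to 10.1% with a median of 5.80%, close to the 5.81% background, and all 11 intervals included the background. This moved with the window: at 10 kb the intervals of 3 lists lay above it, AP-1 factors with 4 of 21 regions (19.05%, 7.67 to 40.001), Wnt with 3 of 18 (16.7%, 5.84 to 39.2) and axon guidance with 5 of 37 (13.5%, 5.91 to 28.0), and at 100 kb that of the mesenchymal list lay below it (2 of 128, 1.56%, 0.430 to 5.52). Among gut epithelial and classical genes, 8 of 138 regions were tumor-only (5.80%, 2.97 to 11.02), and 3 of them lay within 50 kb of both Tff1 and Tff2 (2 also of Tff3), trefoil factor genes whose secreted products protect mucosa. The regions began at positions 31169783, 31175153 and 31183147 of chromosome 17, with scores of 314, 240 and 495, and AP-1 was in all 3. They belonged to a run of 5 neighboring primary tumor regions without a mets counterpart in 19.2 kb (31164960 to 31184113), in which the mets list had no region. The run began at the 5′ end of Tff1, where a region with a score of 364 (percentile 41.1) was tumor-only but lay too close to a start site to be counted. The shared region 2.59 kb into the gene ranked at percentile 84.2 in the primary tumor and 96.7 in mets, so the Tff1 locus had strong regions in both lists. Vil1, for the microvillus protein villin, had 2 tumor-only regions, and Krt20, Anxa10 and St6galnac1 had 1 each.

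Of the HNF4, FOXA, GATA and HNF1 factor genes, 5 of 13 had a tumor-only region (5 of 67 regions, 7.46%, 3.23 to 16.3). At Hnf4a, a nuclear receptor gene of gut and liver epithelium, 1 of 6 distal regions was tumor-only, with a score of 196 and a mets region 398 bp away, and 4 mets-only regions lay in the same window. At Foxa1, for a pioneer factor, 1 of 3 was tumor-only (score 198, AP-1 word). Gata4 (1 of 13), Gata5 (1 of 7) and Gata6 (1 of 6) had scores of 192, 208 and 270, and none of the 3 held one of the 5 capitalized words. Hnf4g, the other HNF4 gene of the list, had only 2 distal regions, too few to read the absence of a tumor-only region. All 5 ranked under percentile 28 of the primary tumor list (Gata6, the highest, at 27.1). Among pancreas lineage factors 2 of 60 regions were tumor-only (3.33%, 0.919 to 11.4). One was in a Pax6 intron, 899 bp wide with a score of 289. Pax6, a regulator of pancreatic endocrine cells, had no other region of either list within 50 kb, and the nearest mets region was 85468 bp away. The other was near Rbpjl, a factor of acinar cells, with a score of 221.

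Of the AP-1 genes 5 of 15 had a tumor-only region (7 of 89 regions, 7.87%, 3.86 to 15.4): Jund and Batf2 had 2 each, and Fos, Fosb and Atf3 had 1 each. The 2 Jund regions lay in an intron of Pde4c, 45358 and 45810 bp from the Jund start. Both were also counted above at Mast3, Mpv17l2 and Rab3a. The scores of the 7 regions ran from 191 to 242. The Atf3 region, in an intron, and the Jund region that begins at position 70744759 held the AP-1 word themselves. The other Jund region, both Batf2 regions and the regions at Fos and Fosb did not. Of all tumor-only regions, 40.3% held that word anywhere. In the RUNX and TEAD list 4 of 98 regions were tumor-only (4.08%, 1.60 to 10.0), at Runx2, Cbfb, Tead1 and Tead4, with scores of 218, 186, 228 and 309. AP-1 was in the regions at Runx2, Tead1 and Tead4. The mesenchymal list had the lowest share, 1 of 68 (1.47%, 0.260 to 7.87), at Zeb1, a repressor of epithelial genes. The basal and squamous list had 7 of 153 (4.58%, 2.23 to 9.14). Its strongest region was intronic in Trp63, the squamous lineage factor, with a score of 571 (percentile 64.7) and an AP-1 word, 23455 bp from the nearest mets region. Areg, for an EGFR ligand, had 2 regions with scores of 322 and 401.

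Pancreatic cancer driver genes had the highest share of the pathway lists, 9 of 89 (10.1%, 5.41 to 18.1), of which 4 lay at Egfr. Egfr, the receptor for Areg and other EGF-family ligands, had 4 tumor-only among 13 distal regions. Of these, 2 were upstream, with scores of 348 and 196, and 2 were intronic, with scores of 423 and 450. The 9 shared distal regions at Egfr had a median change of 6.12 percentile points toward mets, against 3.75 over all shared distal regions. Trp53, Arid1b and Map2k4 had 1 region each with scores of 215, 204 and 215. In the Wnt list 8 of 108 regions were tumor-only (7.41%, 3.80 to 13.9). The Wnt effector gene Tcf7l2 had 2, with scores of 570 and 300, and Rnf43, for a ubiquitin ligase that removes Wnt receptors, had 2 with AP-1 in both. The TGF-beta and BMP list had 8 of 150 (5.33%, 2.73 to 10.2), with 2 at Ltbp1, which encodes a protein that stores latent TGF-beta, and 1 each at the ligand genes Bmp2 and Bmp4. The axon guidance list had 12 of 150 (8%, 4.64 to 13.5), with 2 each at Slit1 and Efna5 and 1 each at 8 other genes. Of the cell type lists, hepatocyte genes had 3 of 24 tumor-only regions, at Apob and Ttr, and immune genes 1 of 25, at Cd68. Epithelial markers had 0 of 46 (Wilson upper limit 7.71%), endothelial markers 0 of 21 (15.5%) and fibroblast markers 0 of 18 (17.6%). With 3 counts as the limit that a count of 0 allows, the shares could be up to 6.52%, 14.3% and 16.7%.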

How the data were processed

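Accessible regions were measured by ATAC-seq (Omni-ATAC, per the labels) in 4 replicates of each line and deposited as 1 BED list per group. The authors gave each region a score whose scale is not stated, and here it served for ranks inside each list. The submitters' processing notes name Bowtie2 2.2.6, MACS2 2.1.1.20160309, DiffBind and the builds mm10 and hg38. Their role for these lists, the threshold, any shift of reads to the insertion site and the handling of replicates are not given in the sources used here, and a list with deeper libraries can hold more weak regions. All region ends lay inside mm10 chromosomes (0 beyond).

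Regions were annotated with GENCODE vM21 and sequence was read from RefSeq GRCm38.p6, using Python 3.11.15, pandas 2.3.3, scipy 1.17.1 and pysam 0.24.0. The gap, overlap, interval and word-count functions were tested on simulated data. The lists hold no counts, so no count test was run. Whole regions were the planned stretch for word counts, and the central 200 bp were placed first because widths differed. Regions, lists and comparisons were chosen with earlier results of these data known. Named genes are the nearest coding genes of the 10 highest-scoring regions, the 10 genes with the most tumor-only regions, all factor and pancreas lineage genes with one, and the top 3 genes of other lists, with ties and the further genes named chosen after their values were seen. Gene lists were written by hand. The HPAF-II lists were not used here, and some genes of the driver list are not reported here.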

Additional observations from a re-analysis of the deposited data

How the results depend on the processing

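No paired analysis was possible because each group is 1 list with no column per replicate, and for the same reason no replicate could be left out. Read depth is unknown, and the lists give no way to tell a region that is absent in mets from one that fell under the calling limit there. The number of tumor-only regions came to 17321 when only the upper 50% of the mets list counted as counterpart and to 1141 at a score of 250 or more. The intergenic share was 43.7% for regions more than 5 kb from start sites and 37.9% at a score of 250 or more.

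The differences of AP-1 and GATA from the shared set turned with the stretch searched and with the scores of the shared regions. Those of FOXA and CEBP were negative over whole regions, and their central intervals included 0 (-0.611 to 1.14 and -0.868 to 1.47). For HNF4 the interval included 0 over whole regions and excluded it in the center (0.0749 to 0.926). The cause was not tested. In the central 200 bp the difference was 3.19 points for AP-1, 1.20 for GATA, 0.201 for FOXA and 0.240 for CEBP, against -7.06, -1.39, -3.75 and -7.01 over whole regions, and it was -3.35 for CTCF and -1.34 for RUNX (-3.33 for RUNX against mets-only regions). With shared regions only up to the 90th score percentile of the tumor-only regions, the whole-region differences were 4.66 for AP-1, 1.24 for GATA, -0.852 for FOXA, -6.92 for CTCF and -2.64 for RUNX. At a score of 250 or more, GATA differed by -0.0149 points from the shared and by 3.64 from the mets-only set, and CTCF by -5.51 from the shared set.

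The chromosome 8 share was 6.09% at a score of 250 or more and 14.5% when a region counted as shared only with 50% of it covered, against 2.86% and 7.24% on the other chromosomes without chromosome 18. The share of tumor-only regions with another nearby was 12.7% at a joining distance of 20 kb and 39.7% at 100 kb. With 10 kb around start sites, the share of list regions was 0% for the mesenchymal, RUNX and TEAD, and TGF-beta and BMP lists, 19.05% for AP-1 factors, 16.7% for Wnt and 13.5% for axon guidance, from 18 to 37 regions a list. Without chromosomes 8 and 18, an alternative chosen after seeing the data, the mesenchymal share was also 0%. That value was fixed by the alternative, since the only tumor-only region of the list, at Zeb1, lies on chromosome 18. The cause of the other moves was not tested either.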
